A study of Mus musculus with 6 samples.

Results

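The genes described here are 9 extracellular proteases and 1 of their inhibitors, taken by name from the 24411 features of the count tables: the matrix metalloproteinases (MMPs) Mmp2, Mmp3, Mmp8, Mmp9, Mmp12, Mmp13 and Mmp14, the aggrecanases Adamts1 and Adamts4, and the tissue inhibitor of metalloproteinases Timp2. All 10 matched a feature by symbol. They were measured by RNA-seq in 6 libraries of primary microglia (PM). PM were shaken off mixed glial cultures, which had been grown from pooled whole brains of 12 ICR mice at postnatal day 3. In 3 libraries, PM were treated with GSK-J4 (10 μM) for 4-h, and in the other 3 with GSK-J4 (10 μM) and LPS (10 ng/ml) for 4-h. GSK-J4 is an inhibitor of the H3K27 demethylase JMJD3, and LPS is a bacterial ligand of the receptor TLR4. Both groups received GSK-J4, so each difference below is that between PM with and without LPS under the inhibitor. Untreated and LPS-only PM were not analysed here. The study calls the 3 samples of a treatment biological replicates from independent PM experiments, and p values measure the spread between them.

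MMPs are zinc-dependent enzymes that cut collagens, elastin, fibronectin and other proteins around the cell. Most are secreted as inactive proenzymes and are opened by other proteases, among them plasmin. ADAMTS enzymes of the aggrecanase type cut the lecticans, the large proteoglycans of the brain matrix. TIMPs bind the active site of MMPs and block it. In the inflamed brain, microglia are known as a source of MMPs that loosen the basement membrane around vessels. Messenger RNA levels, as given here, do not measure proenzyme activation or inhibition.

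Several of these genes are neighbours. Mmp13, Mmp12, Mmp3 and Mmp8 lie within the MMP cluster of mm10 chromosome 9, in this order, with Mmp10 between Mmp3 and Mmp8. The cluster runs over 427 kb from Mmp13 (7272514 to 7283331) to the end of Mmp7 at 7699585. Mmp12 lies at 7344381 to 7369499, Mmp3 at 7445822 to 7455975 and Mmp8 at 7558456 to 7568485. The other genes lie elsewhere, Mmp9 on chromosome 2 (164940780 to 164955850), Mmp2 on chromosome 8 (92827291 to 92853420), Mmp14 on chromosome 14 (54431612 to 54445364), Adamts1 on chromosome 16 (85793827 to 85803113, with Adamts5, another aggrecanase gene, on the same strand at 85856173 to 85901828), Adamts4 on chromosome 1 (171250421 to 171260637) and Timp2 on chromosome 11 (118301069 to 118355740). RefSeq promoters on GRCm38.p6 were matched for 7 of the 10 genes, and Mmp2, Mmp9 and Adamts4 had none to search. Among these, the binding motif of AP-1 (TGANTCA, both strands) was found in the 250 bases before a start of Mmp13, Mmp12 and Mmp3, which is 3 of 7 genes. It was present in 6.75% of all 32851 promoter windows of this length. That share counts single windows, whereas a gene with a match at any start is counted here, and Mmp12 has 2 windows. In each of the 3 genes the match lay within the last 46 bases before the start. The promoters of these 3 cluster genes and of Timp2, whose level differed least between the groups, are shown 5′ to 3′ with AP-1 matches and TATA boxes (TATAAA, both strands) in capitals. The window of Timp2 held neither.
Mmp13, chr9:7272264-7272513, plus strand: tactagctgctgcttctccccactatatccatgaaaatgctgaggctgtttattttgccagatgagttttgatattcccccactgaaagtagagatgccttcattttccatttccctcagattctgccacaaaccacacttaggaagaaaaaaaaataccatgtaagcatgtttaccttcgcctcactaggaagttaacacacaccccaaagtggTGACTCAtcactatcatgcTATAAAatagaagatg
Mmp12, chr9:7347124-7347373, plus strand: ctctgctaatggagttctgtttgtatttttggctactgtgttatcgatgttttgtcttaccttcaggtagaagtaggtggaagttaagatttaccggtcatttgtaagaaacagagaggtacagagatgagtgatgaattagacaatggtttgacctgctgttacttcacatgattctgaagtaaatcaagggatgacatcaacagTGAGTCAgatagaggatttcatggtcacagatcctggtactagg
Mmp3, chr9:7445572-7445821, plus strand: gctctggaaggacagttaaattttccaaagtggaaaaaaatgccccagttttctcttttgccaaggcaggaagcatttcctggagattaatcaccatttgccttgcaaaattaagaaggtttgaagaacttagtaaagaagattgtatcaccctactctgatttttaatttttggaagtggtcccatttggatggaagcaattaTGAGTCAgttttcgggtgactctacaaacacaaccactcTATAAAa
Timp2, chr11:118355412-118355661, minus strand: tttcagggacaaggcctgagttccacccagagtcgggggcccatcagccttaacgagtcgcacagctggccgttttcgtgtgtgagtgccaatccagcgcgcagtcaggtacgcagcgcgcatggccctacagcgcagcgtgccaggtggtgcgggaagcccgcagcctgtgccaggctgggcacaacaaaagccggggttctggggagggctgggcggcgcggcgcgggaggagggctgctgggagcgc
For Mmp12, RefSeq lists 2 starts, 2977 bases apart, and the window of the downstream start is shown because the upstream one held no AP-1 match. TATAAA was found in 3 of the 7 genes, Mmp3, Mmp13 and Adamts1, against 12.4% of all windows. The NF-κB motif, searched by its standard consensus on both strands, was found in 3.90% of all windows and in 0 of the 7 genes, which says only that this consensus is not within these windows. Outside the members, the window of Mmp10 also held both AP-1 and TATAAA matches. A match is a description of the sequence and was not tested for binding.

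The libraries held 2597505 to 3472716 fragments assigned to genes. The ribosomal feature Rn45s, together with Mir6236 and Lars2, took 29.6 to 42.3% of these counts in GSK-J4 and 53.7 to 54.9% in LPS + GSK-J4. The counts that remained for other genes were thus fewer in the latter (1374377 to 1444886, against 1499693 to 2443344). Counts were scaled by TMM factors and are given as CPM (counts scaled to a common library size). A gene with 3 counts was at 0.673 to 1.24 CPM, depending on the library, and this floor covers counting error only. GSK-J4 replicate 3 and LPS + GSK-J4 replicate 3 stood apart from the other libraries on the second principal component (16.4% of the variance). In GSK-J4, the chi-square of raw counts per degree of freedom was 2.21 between replicates 1 and 2. It was 13.5 and 13.9 between these and replicate 3. In LPS + GSK-J4 the same values were 2.48, 6.44 and 6.52. Replicates 1 and 2 were thus more alike, and whether the 3 replicates are equally independent was not tested. Tnf, a cytokine gene that answers LPS, had 34.4 ± 5.71 CPM under GSK-J4 alone and 4298 ± 235 CPM with LPS (SD, n = 3). The defining microglial marker Itgam was at 206 to 222 CPM in GSK-J4 and 184 to 185 CPM in LPS + GSK-J4, and Aif1 at 5.19 to 6.97 and 3.30 to 7.63 CPM.

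In PM treated with GSK-J4, Mmp13 and Adamts4 were called higher with LPS than without, and 0 members were called lower in edgeR (0 also at an unadjusted p under 0.05 and in DESeq2). Mmp13 kept its call in all 16 alternative settings. Adamts4, which had few fragments, lost its call in 4 of the 15 settings that tested it, among them the fit without LPS + GSK-J4 replicate 3. The study set a p of 0.01 or less, with a false discovery rate, and a log2 fold change of 1.5 or more. To be called here, a gene had to reach both, up or down, with the Benjamini-Hochberg adjusted p of edgeR's quasi-likelihood test over 10133 genes. The 2 calls were made among the 9 members that passed the filter on low counts, while 2.95% of all genes tested were called higher and 0.809% lower. A further 3 members, Mmp9, Mmp12 and Adamts1, were higher past the adjusted p, with fold changes below the threshold. This made 5 of 9 members past the adjusted p alone, against 8.42% of all genes tested. In 7 of the 9 the lowest LPS + GSK-J4 library exceeded the highest GSK-J4 library, against 19.8% of all genes tested. The exceptions were Mmp2 and Timp2. The median log2 fold change of the 9 members was 1.08, and that of all genes tested was -0.00064. The members were named with earlier results of these data known, so these counts describe them and are no independent support.

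**Figure D1:**
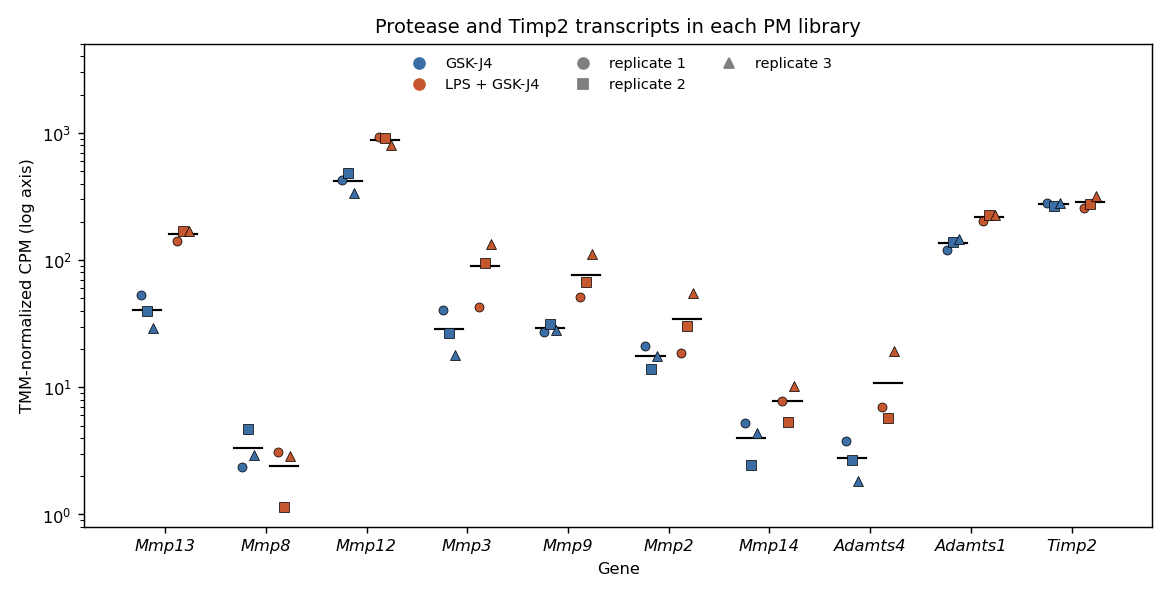
Level of each gene in TMM-normalized CPM (log axis) in the 3 GSK-J4 (blue) and 3 LPS + GSK-J4 (orange) libraries, with replicates 1, 2 and 3 as circles, squares and triangles and the group means as black lines. The groups are apart for Mmp13, Mmp12, Mmp9 and Adamts1 and coincide for Timp2, and the LPS + GSK-J4 libraries of Mmp3, Mmp9, Mmp2 and Adamts4 are spread, with replicate 3 on top.

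The collagenases cut the triple helix of fibrillar collagen. Mmp13, collagenase 3, was at 53.3, 40.0 and 29.3 CPM in GSK-J4 replicates 1, 2 and 3 and at 142, 169 and 169 CPM in LPS + GSK-J4 replicates 1, 2 and 3. The lowest LPS + GSK-J4 library was therefore well above the highest GSK-J4 library. In counts as deposited, these were 226, 178 and 80 fragments against 363, 442 and 409. Its mean rose from 40.9 ± 12.02 to 160 ± 15.7 CPM (SD, n = 3). The fitted change was 3.86-fold, or 1.95 on the log2 scale (standard error 0.18, 95% interval 1.57 to 2.32, adjusted p = 6.38e-07 in edgeR). It was called under each of the 16 alternative settings, with log2 fold changes from 1.74 to 2.18. Mmp8, the collagenase of neutrophil granules, had 10, 21 and 8 fragments in GSK-J4 and 8, 3 and 7 in LPS + GSK-J4. These are 2.36 to 4.71 and 1.14 to 3.12 CPM, near the floor, and the groups overlap. Mmp8 was too low for the filter. Tested without it, Mmp8 had a log2 fold change of -0.56 (adjusted p = 0.517 in edgeR), and no difference was detectable at this depth. Markers of neutrophils were at or near 0 in every library: S100a9, Ngp and Camp had no counts, and the summed level of the 7 markers with a feature was 2.20 to 5.46 CPM, most of it S100a8 (1.91 to 4.96 CPM), while Ly6g had no feature.

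Mmp12, the macrophage elastase, had the most fragments of all members. It was at 430, 479 and 335 CPM in GSK-J4 and 923, 916 and 799 CPM in LPS + GSK-J4, and the groups did not overlap. The log2 fold change was 1.08 (standard error 0.13, 95% interval 0.81 to 1.36, adjusted p = 1.49e-05 in edgeR), or 2.12-fold. The upper bound of that interval is below the threshold of 1.5. Mmp12 shares 157 exon bases with Mmp1b on the opposite strand, and Mmp1b was at 0 in GSK-J4 and at most 1.91 CPM in LPS + GSK-J4. Mmp3, stromelysin 1, which cuts proteoglycans and fibronectin and opens other pro-MMPs, was at 40.8, 26.9 and 18.0 CPM in GSK-J4 and 42.5, 94.6 and 133.8 CPM in LPS + GSK-J4. The lowest LPS + GSK-J4 library was nearly level with the highest GSK-J4 library, both being replicate 1. The log2 fold change of 1.63 was above the threshold, with a wide interval of 0.44 to 2.81, and the adjusted p of 0.0612 (edgeR) did not pass. Without GSK-J4 replicate 1 Mmp3 was called (log2 fold change 1.97, adjusted p = 0.00771), as it was without LPS + GSK-J4 replicate 1 (1.96, adjusted p = 3.09e-05). With only replicates 1 and 2 of each group the log2 fold change was 1.03 (adjusted p = 0.375). Whether Mmp3 was called thus depended on which library was left out.

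The gelatinases cut denatured collagen and the type IV collagen of basement membranes. Mmp9, gelatinase B, was at 27.4, 31.6 and 28.2 CPM in GSK-J4, a narrow range, and at 51.5, 67.2 and 112 CPM in LPS + GSK-J4. Each LPS + GSK-J4 library lay above the GSK-J4 libraries. Its log2 fold change was 1.40 (standard error 0.23, 95% interval 0.91 to 1.88, adjusted p = 0.000299 in edgeR). Without LPS + GSK-J4 replicate 1 it was 1.62 and Mmp9 was called, and without LPS + GSK-J4 replicate 3 it was 1.02 (adjusted p = 1.99e-05). Mmp2, gelatinase A, was at 21.0, 13.9 and 17.6 CPM in GSK-J4 and 18.7, 30.1 and 54.9 CPM in LPS + GSK-J4, and the groups overlap. Its log2 fold change of 0.98 (95% interval 0.34 to 1.62) had an adjusted p of 0.0269 in edgeR and was not called. Without LPS + GSK-J4 replicate 3 it was 0.49 (adjusted p = 0.13).

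Mmp14, or MT1-MMP, sits in the cell membrane and, together with TIMP2, opens pro-MMP2. It had 22, 11 and 12 fragments in GSK-J4 and 20, 14 and 25 in LPS + GSK-J4, that is 5.19, 2.47 and 4.40 CPM against 7.81, 5.34 and 10.3 CPM. The groups lay side by side without overlap, and the log2 fold change of 0.97 (95% interval 0.20 to 1.73, adjusted p = 0.0651 in edgeR) did not pass. Timp2, the inhibitor of this pair, was at 280, 265 and 279 CPM in GSK-J4 and 259, 276 and 317 CPM in LPS + GSK-J4. These groups overlap. Its log2 fold change was 0.05 with a 95% interval of -0.19 to 0.29 (adjusted p = 0.811 in edgeR), which leaves room for a level from 0.874 to 1.22 times that in GSK-J4. Without LPS + GSK-J4 replicate 3 the sign turned (log2 fold change -0.038). Per kb of exon, Timp2 was 8.63 ± 0.893 times the level of Mmp9 in GSK-J4 and 3.62 ± 1.01 times in LPS + GSK-J4 (SD, n = 3), and 13.9 ± 2.49 and 8.29 ± 3.49 times that of Mmp2.

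**Figure D2:**
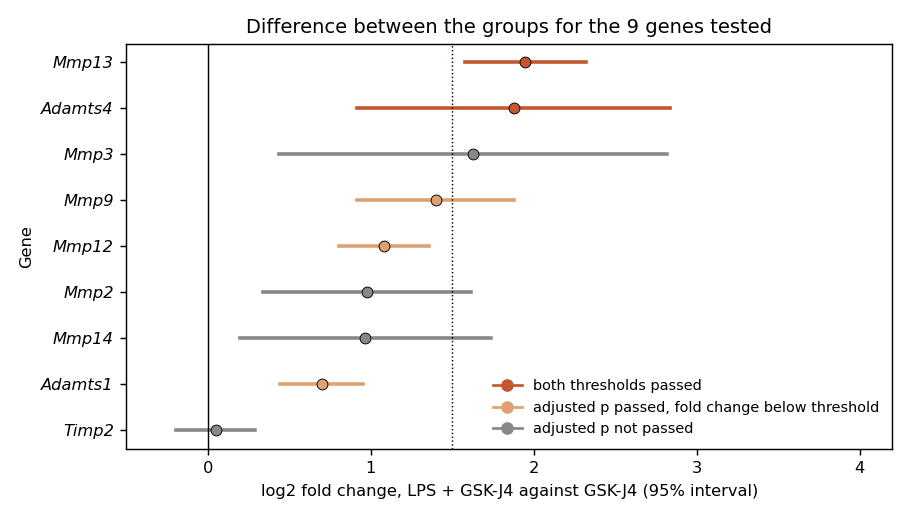
log2 fold change of LPS + GSK-J4 against GSK-J4 for the 9 genes tested, with 95% intervals that are not adjusted for the number of genes. The dotted line marks the threshold of 1.5. The interval of Mmp13 lies wholly above it, those of Mmp12, Adamts1 and Timp2 wholly below it, and that of Adamts4, which was called, spans it.

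Of the aggrecanases, Adamts4 (aggrecanase 1) was up-regulated from a very low level. It had 16, 12 and 5 fragments in GSK-J4 and 18, 15 and 47 in LPS + GSK-J4, which is 3.77, 2.69 and 1.83 CPM against 7.03, 5.72 and 19.4 CPM. The groups did not overlap, and LPS + GSK-J4 replicate 3 was far above the other 2 libraries of its group. The log2 fold change was 1.88 (standard error 0.45, 95% interval 0.91 to 2.84, adjusted p = 0.00644 in edgeR). Without LPS + GSK-J4 replicate 3 it was 1.14 and the call was lost (adjusted p = 0.0425). The call was also lost without GSK-J4 replicate 2 (log2 fold change 1.82, adjusted p = 0.0233) and without GSK-J4 replicate 3 (1.70, adjusted p = 0.0255). Adamts1, the other aggrecanase, was at 121, 138 and 146 CPM in GSK-J4 and 204, 226 and 227 CPM in LPS + GSK-J4. Its libraries were close within each group (SD 9.52 and 6.01% of the mean), and the groups did not overlap. The log2 fold change was 0.70 (standard error 0.12, 95% interval 0.44 to 0.95, adjusted p = 0.000466 in edgeR), or 1.62-fold, below the threshold. Adamts1 thus had many more fragments than Adamts4 and a smaller fold change.

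Levels of different genes were compared per kb of exon. In GSK-J4, Timp2 was the most abundant at 70.5 ± 2.13 CPM per kb (SD, n = 3), followed by Mmp12 (57.3 ± 10.1), Adamts1 (25.5 ± 2.42), Mmp3 (15.9 ± 6.39), Mmp13 (15.3 ± 4.50), Mmp9 (8.22 ± 0.640) and Mmp2 (5.19 ± 1.05). Mmp8, Mmp14 and Adamts4 were at 1.38, 0.674 and 0.575 CPM per kb. Of the neighbours in this order, the libraries of Mmp3 and Mmp13 and those of Mmp14 and Adamts4 overlapped. In LPS + GSK-J4 the order began with Mmp12 (122 ± 9.65 CPM per kb), Timp2 (72.9 ± 7.63), Mmp13 (59.8 ± 5.85), Mmp3 (50.2 ± 25.4) and Adamts1 (41.3 ± 2.48), with Mmp9 at 21.8 ± 8.92 and Mmp2 at 10.3 ± 5.49. Adamts4, Mmp14 and Mmp8 were at 2.23, 1.31 and 0.984 CPM per kb. Here the libraries of Mmp3 (23.6 to 74.3 CPM per kb) overlapped those of Timp2, Mmp13, Adamts1 and Mmp9. Those of Mmp9 and Mmp2 also overlapped, as did those of Adamts4, Mmp14 and Mmp8 with each other. Mmp13 was at rank 5 of 10 in GSK-J4 and rank 3 in LPS + GSK-J4, and Adamts4 at ranks 10 and 8. The order depends on the length used. With the longest coding transcript in place of all annotated exons, a choice made after the values were seen, Mmp12 was at 115 and 244 CPM per kb and stood above Timp2 (74.1 and 76.5) in both groups.

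The members differed in how their libraries scattered. In LPS + GSK-J4, the SD was 6.01 to 10.5% of the mean for Timp2, Mmp13, Mmp12 and Adamts1 and 41.0 to 70.5% for Mmp9, Mmp3, Mmp2 and Adamts4. For 8 of the 10 genes, LPS + GSK-J4 replicate 3 was the highest library, the others being Mmp8 and Mmp12. It was also the highest for the summed astrocyte and endothelial markers, other inhibitors, activation genes, Adam genes and substrate genes. It was not the highest for the summed oligodendrocyte, neuronal, neutrophil or microglial markers, or for the other MMP or Adamts genes. The share of all genes with this library highest was not determined. The same library was the highest for 7 of 8 markers of mesenchymal cells (Col1a1, Col1a2, Col3a1, Dcn, Lum, Pdgfrb and Fn1, but not Postn), which mixed glial cultures can hold. Their summed level was 619 to 875 CPM in GSK-J4 and 940, 1064 and 1631 CPM in LPS + GSK-J4 replicates 1, 2 and 3. The groups did not overlap in this sum, and a 2-sided exact permutation test gave p = 0.1, the smallest that 3 libraries against 3 allow. Without Fn1, a matrix gene that macrophages also express, the sum was 289.7, 87.5 and 99.4 CPM in GSK-J4 and 150.3, 255 and 439 CPM in LPS + GSK-J4. In this sum the groups overlap (p = 0.3 in the same exact test). GSK-J4 replicate 1, with 289.7 CPM, was also the GSK-J4 library with the most Mmp2, Mmp3, Mmp13, Mmp14 and Adamts4. It was the lowest of its group for Mmp8, Mmp9 and Adamts1 and the middle one for Mmp12. For Timp2 it was nearly level with replicate 3 (279.6 and 279.4 CPM). Of the 8 mesenchymal markers, 0 were called in edgeR or DESeq2, 3 were higher at an unadjusted p under 0.05 and 1, Fn1, passed the adjusted p. Col1a1 was at 5.84 to 15.1 and 7.81 to 38.8 CPM and Col1a2 at 11.9 to 38.5 and 26.9 to 61.1 CPM. The part of such cells in the levels of the members was not tested, and in bulk libraries fewer cells of a type and less RNA per cell cannot be told apart.

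**Figure D3:**
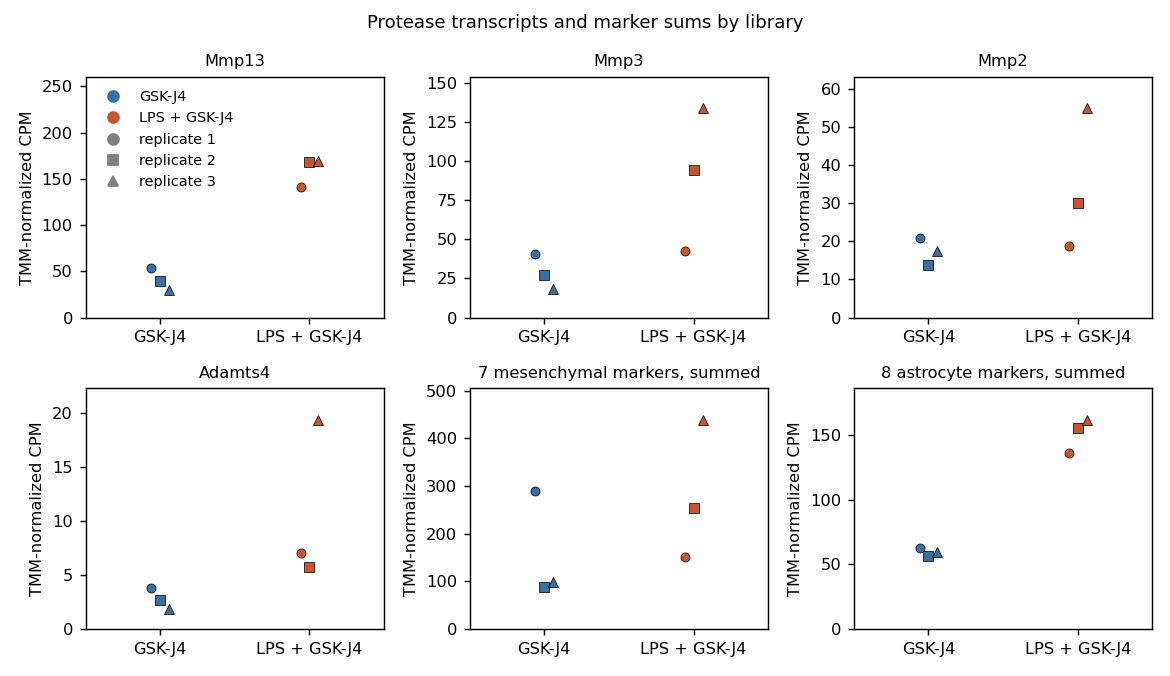
CPM of Mmp13, Mmp3, Mmp2 and Adamts4 and the summed CPM of 7 mesenchymal markers (Fn1 left out) and 8 astrocyte markers in each library, with symbols for the replicates. LPS + GSK-J4 replicate 3 (triangle) is the highest library in each panel, for Mmp13 only just above replicate 2 (168.9 and 168.7 CPM). The groups are apart for Mmp13, Mmp3, Adamts4 and the astrocyte sum and overlap for Mmp2 and the mesenchymal sum.

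Markers of other cells differed between the groups as well. The summed astrocyte markers were at 56.3 to 62.8 CPM in GSK-J4 and 136 to 162 CPM in LPS + GSK-J4. Of the 7 tested, Gfap was called (log2 fold change 1.70, adjusted p = 9.28e-06 in edgeR), and Aqp4 and Gja1 passed the adjusted p. Aqp4 was at 5.87 to 9.43 and 17.6 to 23.7 CPM. Oligodendrocyte markers summed to 146 to 175 and 255 to 281 CPM, with 3 of 6 past the adjusted p, 3 at an unadjusted p under 0.05 and 0 called in edgeR or DESeq2. Of these, Olig1 was at 8.02 to 12.1 and 18.0 to 30.1 CPM and Olig2 at 3.54 to 6.60 and 3.51 to 10.3 CPM. Neuronal markers were low (17.0 to 21.3 and 39.7 to 51.5 CPM in sum), with Tubb3 at 4.77 to 5.61 and 13.4 to 14.8 CPM, Rbfox3 at no more than 1.10 CPM, and 1 of 3 tested called, Gad1. Endothelial markers summed to 16.6 to 23.1 and 29.3 to 64.0 CPM, with Cldn5 at 0 in each library, Pecam1 at 0.733 to 1.35 CPM and 1 of 2 tested called, Cdh5. Microglial markers were lower, at 3192 to 3356 against 2533 to 2611 CPM, with 2 of 10 past the adjusted p, 7 at an unadjusted p under 0.05 and 0 called in edgeR or DESeq2. For each of these 5 sums the groups did not overlap, and the 2-sided exact permutation p was 0.1, again the smallest possible.

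The other genes of the pathway were taken from lists and are given by their counts. Of 16 other MMP genes, only 3 passed the filter on low counts, and Mmp10 (stromelysin 2) was called higher. Mmp10 lies at 7502352 to 7510240 in the chromosome 9 cluster. It was at 4.48, 4.26 and 3.67 CPM in GSK-J4 and 13.3, 27.5 and 30.1 CPM in LPS + GSK-J4, without overlap, and its log2 fold change was 2.48 (standard error 0.31, adjusted p = 2.45e-05 in edgeR). Whether this value differs from those of the members was not tested. Mmp15 (log2 fold change 0.65) and Mmp19 (-0.46) were not called. Mmp3 and Mmp10 are related in sequence, and fragments that fit both would be missing from the counts. Of 17 other Adamts genes, 2 passed the filter and 0 were called in edgeR or DESeq2 (unadjusted p under 0.05, 1 higher and 1 lower). Adamts10 was the most abundant, at 43.6 to 61.6 CPM in GSK-J4 and 30.1 to 35.5 CPM in LPS + GSK-J4, a log2 fold change of -0.64 (adjusted p = 0.0115), with no overlap between the groups.

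Among 6 other inhibitors, 3 were tested, and all 3 passed the adjusted p on the higher side. Tfpi2, an inhibitor of plasmin and of some MMPs, was called, at 3.07, 1.57 and 1.47 CPM in GSK-J4 and 5.85, 12.6 and 7.43 CPM in LPS + GSK-J4 (log2 fold change 2.03, adjusted p = 0.00166 in edgeR). Its call was lost without GSK-J4 replicate 2 or LPS + GSK-J4 replicate 2. Timp1 was at 104 ± 16.3 and 258 ± 92.7 CPM (SD, n = 3; log2 fold change 1.31, adjusted p = 0.000906) and Timp3 at 115 ± 6.97 and 229 ± 55.4 CPM (0.99, adjusted p = 0.000203), with fold changes under the threshold. The values of the 3 TIMP genes thus ran from 0.05 for Timp2 to 1.31 for Timp1, and the difference between them was not tested.

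The plasminogen system, convertases and partners of MMPs made a list of 13 genes, of which 10 were tested and 3 were called higher. Plau, the urokinase that makes plasmin, was at 113, 105 and 103 CPM in GSK-J4 and 347, 305 and 310 CPM in LPS + GSK-J4, a log2 fold change of 1.58 (adjusted p = 5.31e-08 in edgeR). Serpinb2, an inhibitor of urokinase, went from 94.8 ± 16.9 to 321 ± 46.2 CPM (SD, n = 3), or by 1.75 on the log2 scale (adjusted p = 3.04e-07). Plat, the tissue-type activator, had a log2 fold change of 1.52 (adjusted p = 0.000184), just above the threshold. It was not called, leaving 2 genes of the list, with unstranded counts, without the filter on low counts, without GSK-J4 replicate 2 or 3, without LPS + GSK-J4 replicate 2 or without both replicates 3. Activators and an inhibitor were thus called on the same side. Furin, a convertase that opens pro-MMP14, was lower at 153 ± 35.8 against 258 ± 44.6 CPM (log2 fold change -0.75, adjusted p = 0.00295), below the threshold. The median over the 10 genes was 1.10.

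Of the 9 Adam genes, which are membrane-bound relatives, 8 were tested and 0 were called in edgeR or DESeq2 (unadjusted p under 0.05, 2 higher and 2 lower), and their median log2 fold change was 0.000104. Adam8, the most abundant, was at 428 to 516 CPM in GSK-J4 and 529 to 643 CPM in LPS + GSK-J4 (log2 fold change 0.27, adjusted p = 0.106). Adam10, the α-secretase, was lower (log2 fold change -0.54, adjusted p = 0.00563). Among 13 genes for lecticans, link proteins, tenascins and hyaluronan synthases, 5 were tested, 4 were higher past the adjusted p and 0 were called in edgeR or DESeq2 (unadjusted p under 0.05, 5 higher). Tnc, tenascin C, was closest to the threshold, at 72.0 ± 13.2 and 202 ± 56.3 CPM (SD, n = 3; log2 fold change 1.49, adjusted p = 2.49e-05). Ncan and Vcan, lecticans that aggrecanases cut, had log2 fold changes of 1.10 and 0.97 (adjusted p = 4.22e-05 and 0.00297), and Has2, a hyaluronan synthase, 1.23 (adjusted p = 0.000382). Acan, the classic substrate of aggrecanases, had no more than 0.449 CPM in any library. The astrocyte markers above moved in the same direction, and their part in the values of Ncan and Tnc, which astrocytes also express, was not tested.

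**Figure D4:**
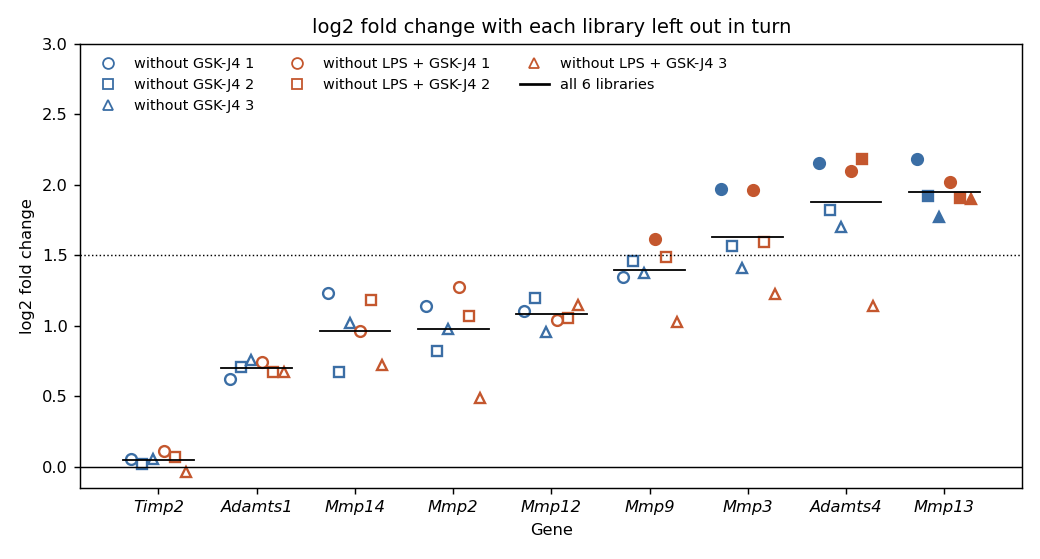
log2 fold change of the 9 genes tested with each of the 6 libraries left out in turn (colour for the group and symbol for the replicate left out), filled where the gene was called, with the value from all 6 libraries as a line. Mmp13 stays filled throughout, while the values of Adamts4, Mmp3, Mmp9 and Mmp2 are lowest without LPS + GSK-J4 replicate 3.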

How the data were processed

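RNA-seq was performed on rRNA-depleted RNA from 3 GSK-J4 and 3 LPS + GSK-J4 libraries of PM with a directional kit. Per the methods and the submitters' processing notes, the authors trimmed reads with Trimmomatic 0.33, aligned them to mm10 with STAR 2.5.1 and deposited its raw counts per gene, without normalization; the annotation used for counting is not given in the sources used here. STAR counts uniquely mapped fragments that overlap 1 gene, so shared fragments of paralogs are missing. The reverse-strand column was used. The same-strand column held 0.966 to 1.38% of the stranded counts, and lines for fragments not assigned to a gene (74.0 to 78.0% of all) were left out.

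Counts were filtered with filterByExpr (minimum count 10, total 15) and then scaled by TMM, with library sizes taken after the filter. They were fitted without covariates by the robust quasi-likelihood test of edgeR 4.0.16 in R 4.3.3, with Benjamini-Hochberg adjustment over 10133 genes. Standard errors are the log2 fold change divided by the square root of F. The code was tested on simulated data. DESeq2 1.42.0, unstranded counts, other scaling, filters and thresholds, the replicate number as a block, removal of Rn45s, Mir6236 and Lars2 and each library left out were alternatives. Leaving out both replicates 3 and the second gene length were added after the data were seen. Gene positions and lengths are from GENCODE M21 (mm10). Figures and sums were made with Python 3.11.15.

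The members and lists were chosen with earlier results of these data known. All 10 members are named, with the called genes of each list (at most 4), the most abundant gene where none was called, and the first 2 markers of each cell type. Timp1, Timp3, Adamts5, Mmp11, Mmp15, Mmp16, Mmp19, Furin, Adam10, Ncan, Vcan, Has2, Acan, Mmp1b, Gja1 and the single markers beyond the first 2 were named after their values were seen.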

Additional observations from a re-analysis of the deposited data

How the results depend on the processing

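The count of 2 members called higher was 1 with at least 10 counts required in every library, where Adamts4 was not tested, 1 without both replicates 3, and 4 at relaxed thresholds (adjusted p 0.05 or less, log2 fold change 1 or more). It ran from 1 to 4 with single libraries left out, because Adamts4 was lost and Mmp3 and Mmp9 were gained. Mmp13 kept its call throughout. Timp2 changed sign without the filter on low counts (log2 fold change -0.0062), without LPS + GSK-J4 replicate 3 (-0.038) and without both replicates 3 (-0.018), and ran from -0.038 to 0.11 with single libraries left out. Without the filter the median of all genes moved to 0.12. Over all genes, 299 higher calls became 176 with at least 10 counts in every library, and 844 higher and 285 lower calls were made at the relaxed thresholds. The relaxed thresholds also gave 2 other inhibitors, 5 genes of the activation list, 1 Adam gene and 3 substrate genes called higher. With at least 10 counts in every library 0 other inhibitors were called, and without the filter 1 other Adamts gene was called lower. With single libraries left out, 0 to 2 other inhibitors, 0 to 1 Adam genes and 0 to 1 substrate genes were called higher. The cause of these shifts was not tested. A replicate block gave 306 higher and 90 lower calls, the same 2 members were called, and 1 Adam gene was. Deviations of same-numbered libraries had r of -0.0102, 0.117 and 0.295 for replicates 1, 2 and 3. Those of differently numbered libraries ran from -0.29 to 0.243. The highest value was that of replicates 3, which also stood apart on the second principal component. These few values cannot settle whether the numbers pair the samples, and a batch shared by replicates 3 was not tested. The count of 3 activation genes was 2 to 3 with single libraries left out, 2 with unstranded counts, 2 without the filter and 2 without both replicates 3. Mmp8, Mmp14 and Adamts4 had the fewest fragments of the members.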

Other observations

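The column of same-strand counts, which the comparisons did not use, held few fragments at these genes. Over all 6 libraries it had 66 fragments at Mmp12 (0.567% of its stranded counts), 49 at Adamts1 (1.51%), 31 at Timp2 (0.583%), 22 at Mmp2 (4.57%) and 12 at Mmp13 (0.702%), and between 1 and 6 at each of the others.

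Of the MMP genes outside the members left out by the low-count filter, Mmp16 was at 1.18 to 2.02 CPM in GSK-J4 and 3.30 to 5.72 CPM in LPS + GSK-J4, a log2 fold change of 1.39 without the filter (adjusted p = 0.0307 in edgeR). Mmp11 was at 14.9 CPM in GSK-J4 replicate 1, the library with the highest mesenchymal sum of its group. It was at 1.83 to 2.89 CPM in the other 5 libraries. The 2.89 CPM were in LPS + GSK-J4 replicate 3, whose mesenchymal sum without Fn1 was higher still (439 against 289.7 CPM).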
